A study of Mus musculus with 6 samples.

Results

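The 36 genes described here encode enzymes that build purine and pyrimidine nucleotides, recover them from free bases and nucleosides, and supply folate-bound one-carbon units. They were matched by symbol to a list of these pathways, which was drawn up with earlier results of these data known. Of the 36, 35 had an identifier in the count files, which held 39179 genes, and all 35 were among the 13846 genes that passed the filter on low counts. The exception was Pnp (purine nucleoside phosphorylase), whose GENCODE identifier was not used in the files, so no value is given for it. An overlapping identifier at that locus, Gm49342, had 48.9, 38.8 and 44.0 CPM in the libraries 1 to 3 with desIgf1 against 45.1, 51.0 and 35.02 CPM in control libraries 1 to 3, and it is not counted among the members. It may be the identifier that an older annotation gave to Pnp, which could not be settled here.

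The study compared 3 libraries of Th17 cells cultured with desIgf1, at 30 ng/mL, with 3 control libraries from cultures without it. The protein, desIgf1, is a form of insulin-like growth factor 1 that lacks its first residues. All 6 libraries came from naive splenic CD4+ T cells of C57BL/6 mice with reporters for Foxp3 (GFP), Ifng (Thy1.1) and Il17a (human CD2). They were cultured for 5 days with TGF-β at 2.5 ng/mL, IL-6 at 20 ng/mL, anti-CD3 at 5 µg/mL, antibodies to IL-4 and IFN-γ at 10 µg/mL each, and irradiated splenocytes depleted of CD4+ cells. RNA came from sorted cells positive for human CD2 and negative for GFP and Thy1.1. The treatment text attached to each library names desIgf1 for all 6, whereas the design text and the titles separate the groups, which follow the titles. Whether each library is a mouse or culture of its own is not stated, and p-values therefore cover library-to-library spread alone, which may be technical in part. Sex and age are not given, and Xist was at 2219 CPM in desIgf1 library 1 and 1705 CPM in control library 1, and under 1 CPM in the other libraries. Ddx3y, on the Y chromosome, was at 0.0501 and 0.0658 CPM in desIgf1 and control library 1, and at 97.1 to 128 CPM in the others. By these genes the number 1 libraries came from female cells and the others from male cells. Each group thus holds cells of more than 1 mouse.

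Gene counts per library summed to 34567899 to 47929948. T cell and Th17 markers were present in every library, with 6 CD4 T cell genes summing to 4357 to 5161 CPM. The 5 Th17 genes summed to 1421, 1611 and 1772 CPM in desIgf1 libraries 1 to 3. In control libraries 1 to 3 they summed to 1220, 1035 and 1104 CPM, so these sums did not overlap between the groups. This difference was not tested. Marker sums of other cell types were at most 15.3 CPM, and Ncr1, Xcr1, Siglech and Alas2 had 0 counts in all 6 libraries. In bulk RNA, fewer cells of a type and less RNA per cell cannot be told apart.

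Purine rings are built stepwise on phosphoribosyl pyrophosphate (PRPP) up to IMP, which is then turned into AMP or GMP. Pyrimidine rings are built first and joined to PRPP later, giving UMP, from which CTP and the deoxynucleotides for DNA are made. Folate carries one-carbon units from serine to the purine ring and to thymidylate, through a mitochondrial and a cytosolic arm, and T cells switch on all these routes when they leave the resting state and divide.

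No member passed the threshold (adjusted p of 0.05) between cells with desIgf1 and control cells in edgeR, and 1, Shmt1, did so in DESeq2 with the library number as a block. Most of the biosynthetic enzymes had lower mean levels with desIgf1, among them Cad, Gart, Tyms, Shmt1 and Mthfd1, and a smaller set had higher ones, among them Cmpk1, Prps2, Tk2, Mthfd2 and Hprt. The log2 fold change (desIgf1 over control) was below 0 for 27 of the 35 (77.1%), against 50.9% of all genes tested. Its median was -0.23 over the members and -0.01 over all genes, with a range over the members from -0.90 (Shmt1) to 0.35 (Cmpk1).

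**Figure D1:**
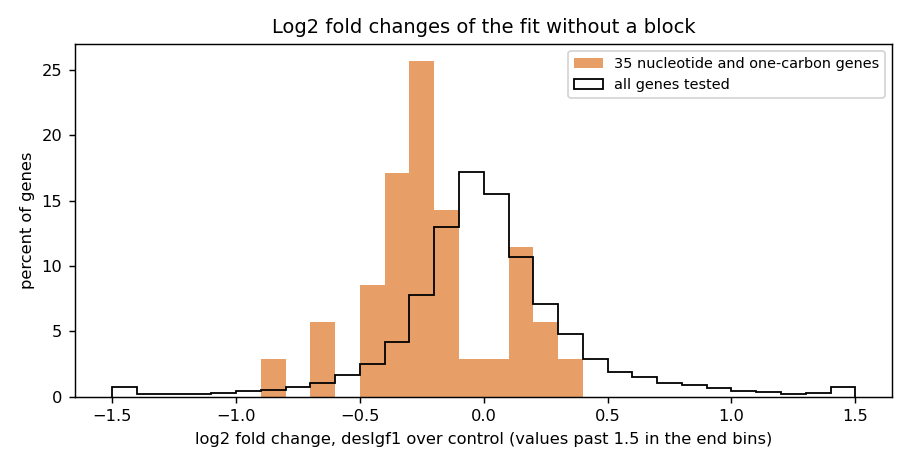
Distribution of log2 fold changes, desIgf1 over control, as the percent of genes per bin of the x axis: filled bars, the 35 nucleotide and one-carbon genes; outline, all 13846 genes tested. The members' median lies at -0.23 and that of all genes at -0.01.

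In edgeR's quasi-likelihood test 0 of the 35 members passed, and 0% of all genes did. Members' adjusted p-values ran from 0.533 to 0.965. At an unadjusted p under 0.05, 4 members (11.4%) were lower, against 3.42% of all genes, and 1 (2.86%) was higher, against 4.75% of all genes. With the library number as a block edgeR called 0 members and 0.318% of all genes. DESeq2 called 0 members without the block, against 1.49% of all genes, and 1 with it (Shmt1, lower), against 4.65% of all genes.

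The difference between the groups was not the same at the 3 library numbers. Over all genes, same-numbered libraries shared deviations from their group means, so each desIgf1 library was also set against the control library of its number. The members' summed levels did not share them at numbers 2 and 3. With desIgf1, number 2 was lowest and number 3 highest (2848 and 3404 CPM). Among controls, number 2 was highest and number 3 lowest (4127 and 3007 CPM). The members' median log2 difference was -0.23 at number 1, -0.60 at number 2 and 0.17 at number 3, where the medians over all genes were -0.00, 0.04 and 0.00. Of the 35 members, 24 were lower with desIgf1 at number 1, 29 at number 2 and 4 at number 3. Lower values at numbers 1 and 2 with a higher value at number 3 were found for 21 members (60%), against 15.4% of all genes. The members' differences correlated between numbers at 0.84 (1 and 2), 0.25 (1 and 3) and -0.03 (2 and 3), across 35 genes that are not independent. Over all genes these correlations were 0.56, 0.34 and 0.13, in the same order. Whether the numbers differ in their response was not tested, since each number has 1 library per group.

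**Figure D2:**
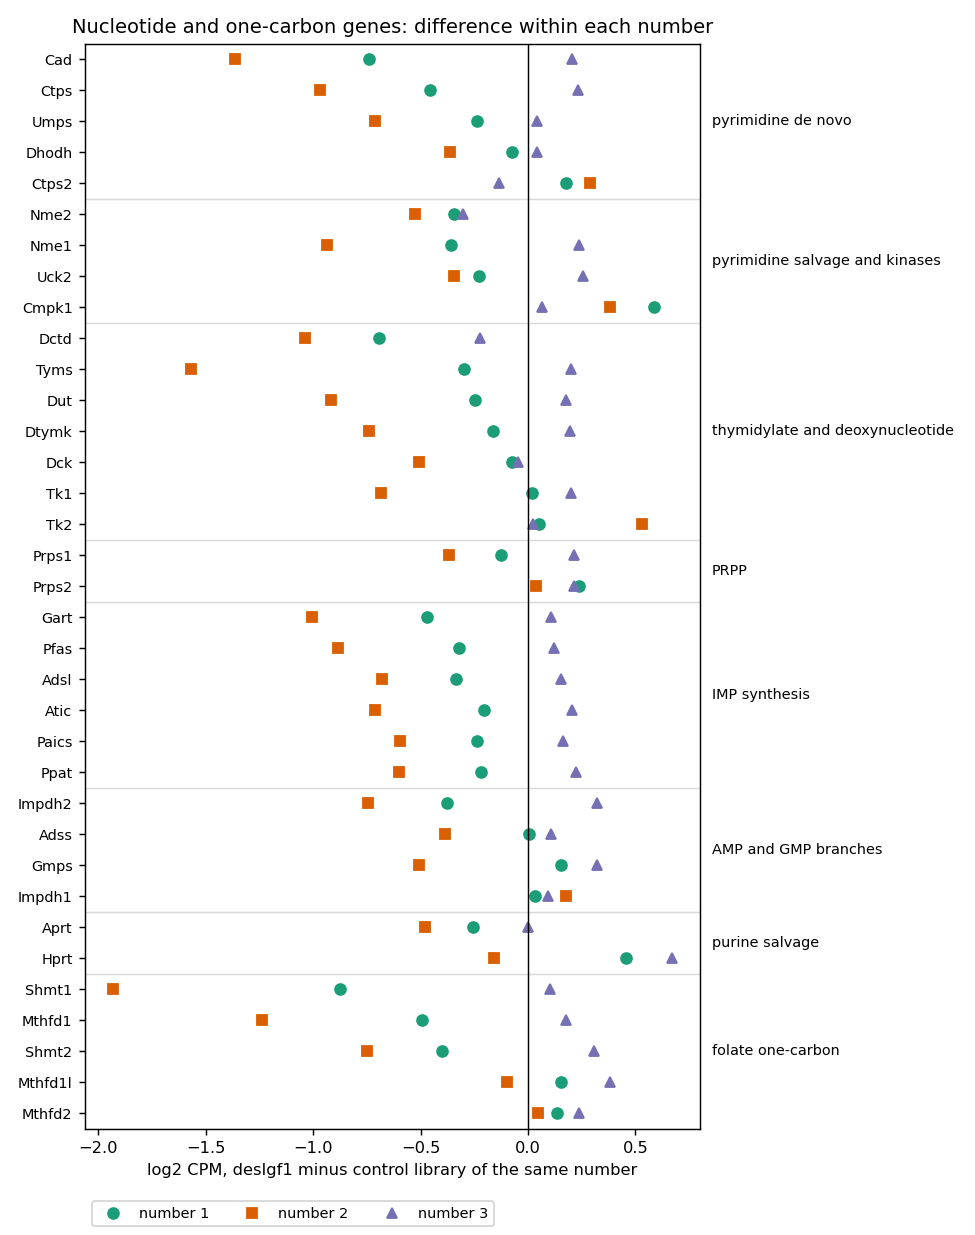
Each row is 1 gene, and its 3 points are the log2 CPM difference (x axis) of the desIgf1 library minus the control library of number 1 (circle), 2 (square) and 3 (triangle), with genes grouped by pathway. Number 2 points lie farthest left for most genes, and 31 of the 35 number 3 points lie right of 0.

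The list was lowest and highest in the number 2 libraries. desIgf1 library 2 had the lowest value of 22 members and control library 2 the highest value of 25, and both held for 18 members (51.4%), against 7.83% of all genes. Without the number 2 libraries the blocked fit gave a median of -0.03, with 19 members below 0 in place of 27, and called 1 member (2.86%, Hprt, higher), against 4.42% of all genes. Without the number 3 libraries the blocked fit gave a median of -0.42 and called 13 members (37.1%), against 7.64% of all genes. Of those 13, 12 were lower (34.3%, against 2.97% of all genes) and Cmpk1 was higher (4.68% of all genes were). Without number 1 it called 0 members, against 0.513% of all genes. These fits have 1 residual degree of freedom.

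The summed level of the 35 members followed that of replication genes and of MYC and ribosome biogenesis genes from library to library. Members summed to 3187, 2848 and 3404 CPM in desIgf1 libraries 1 to 3 and to 3553, 4127 and 3007 CPM in control libraries 1 to 3. A list of 24 replication genes that are no nucleotide enzymes summed to 3268, 2425 and 3612 CPM with desIgf1 and to 3917, 5106 and 3170.1 CPM in controls. A list of 20 MYC and ribosome biogenesis genes summed to 3034, 2847 and 3628 CPM with desIgf1 and to 3679.5, 4044 and 2995 CPM in controls. In all 3 lists the libraries had the same order, highest in control 2 and lowest in desIgf1 2, with control 3 next to lowest. The part of either list in the members' levels was not tested. Of the 24 replication genes 24 had a log2 fold change below 0 (median -0.37) and of the 20 MYC and ribosome genes 18 did (median -0.32). In edgeR 0 genes of either list passed, with or without the block. The smallest p-values belonged to Mcm7, a replicative helicase subunit (log2 -0.50, adjusted p = 0.595), and to Odc1, of polyamine synthesis, with 199, 188 and 244 CPM with desIgf1 against 152, 155 and 161 CPM in controls (log2 0.43, edgeR adjusted p = 0.417). DESeq2 with the block called Odc1 higher (adjusted p = 0.0490) and no other gene of these 2 lists.

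**Figure D3:**
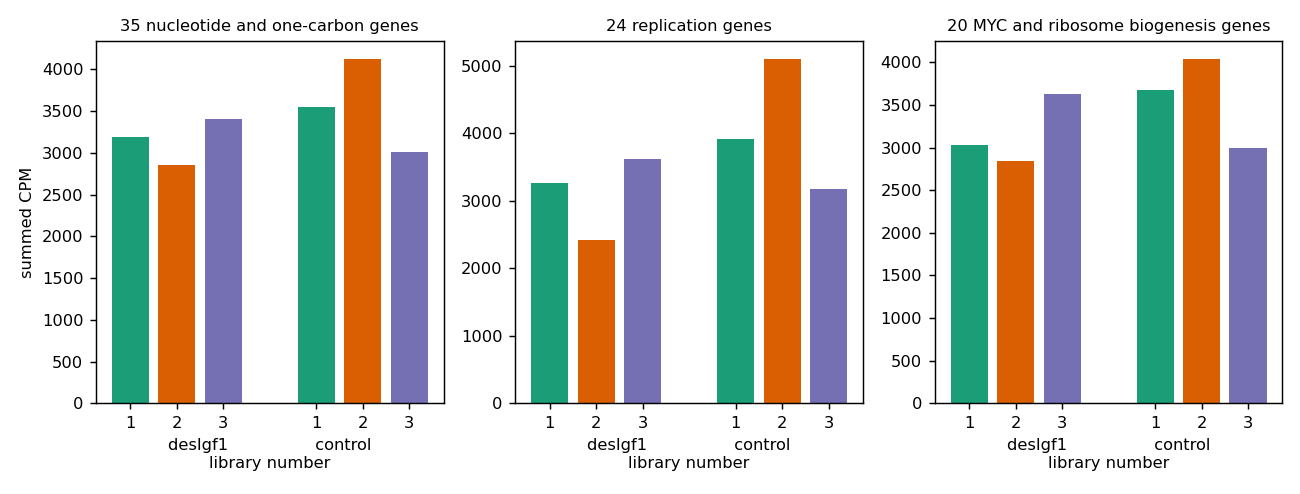
Summed CPM (y axis, from 0) of 3 gene lists in each of the 6 libraries, desIgf1 libraries on the left and control libraries on the right of each panel, coloured by number. All 3 lists are highest in control library 2 and lowest in desIgf1 library 2.

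The promoters of 6 members hold an E-box (CACGTG, a palindrome, so read the same on both strands), the sequence bound by MYC and other factors of its class. They are shown as the stretches of these promoters that hold the motif. All 6 genes are among the 21 members that were lower with desIgf1 at numbers 1 and 2 and higher at number 3, a pattern that 60% of all members had. Of those 21, 13 had a promoter window without an E-box, Cad, Gart, Shmt1 and Mthfd1 among them, and 2 had no window. The search covered RefSeq windows (GRCm38.p6) from 250 bases before to 50 bases after each gene start, matched for 34 of the 36 members. Sequence outside the windows was not searched, so a gene without a match may hold an E-box nearby. The motif was in 17.6% of the 34 members and in 8.09% of 27025 genes with such a window. Those genes were not limited to the ones tested here, and no test was made of that difference. Each stretch of 60 bases runs 5′ to 3′ in the direction of the gene, with the E-box in capitals.
Tyms, chr5:30073654-30073713, minus strand: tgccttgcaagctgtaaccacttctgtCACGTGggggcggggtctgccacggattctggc
Impdh2, chr9:108560299-108560358, plus strand: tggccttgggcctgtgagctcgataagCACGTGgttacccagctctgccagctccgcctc
Paics, chr5:76951072-76951131, plus strand: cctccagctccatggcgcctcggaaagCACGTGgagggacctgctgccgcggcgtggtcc
Atic, chr1:71557122-71557181, plus strand: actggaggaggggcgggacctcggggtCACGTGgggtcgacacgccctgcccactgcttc
Dtymk, chr1:93802050-93802109, minus strand: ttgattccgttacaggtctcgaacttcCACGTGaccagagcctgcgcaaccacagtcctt
Nme1, chr11:93968022-93968081, minus strand: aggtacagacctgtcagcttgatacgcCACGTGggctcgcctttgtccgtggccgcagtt
Nme1, further start, chr11:93968258-93968317, minus strand: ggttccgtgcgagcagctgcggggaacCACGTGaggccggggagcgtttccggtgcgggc

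The E-box lay 7 bases before the start of Atic, 61 before Tyms, 110 before Impdh2, 148 before Dtymk and 203 before Paics, and 29 and 18 before the 2 starts of Nme1. E2F sites written as TTTCGCGC or TTTGGCGC, on either strand, were in 0 of the 34 members and in 0.929% of all genes. Other forms of the site were not searched. The form TTTCCCGC stands in the window of Prps2 and, on the other strand, in that of Ppat. The ATF4 element TGATGNAA was in 1 member (Prps1) and in 4.51% of all genes. A match shows only that the letters are there.

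Of the pyrimidine synthesis enzymes, the gene of the first and committing enzyme had the largest difference. Cad carries out the first 3 steps of the pathway in 1 protein (chromosome 5, 31054780 to 31078479). Its level was 140.1, 103 and 199.9 CPM in desIgf1 libraries 1 to 3, against 234, 265 and 174 CPM in control libraries 1 to 3. desIgf1 library 3 lay above control library 3, so the groups overlapped, and the other 2 desIgf1 libraries lay below every control. Means were 148 ± 48.9 and 224 ± 46.6 CPM (SD, n = 3 each), a log2 fold change of -0.60 ± 0.25 (SE, edgeR adjusted p = 0.608). The blocked value was -0.58 without the number 1 libraries (adjusted p = 1), -0.27 without number 2 (adjusted p = 0.755) and -1.05 without number 3 (adjusted p = 0.00480). Without desIgf1 library 3 alone, the fit without the block gave -0.91.

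Further along, Dhodh, the mitochondrial dehydrogenase of the pathway, was at 15.9 ± 2.64 and 17.2 ± 0.493 CPM (log2 -0.12, adjusted p = 0.844). Umps, which makes UMP, was at 73.0 ± 10.9 CPM with desIgf1 and 89.9 ± 10.3 CPM in controls (log2 -0.30, adjusted p = 0.626). CTP synthase is encoded by a pair of genes. Ctps had 47.3, 34.1 and 58.3 CPM with desIgf1 against 64.9, 66.8 and 49.6 CPM in controls (log2 -0.38 ± 0.21, adjusted p = 0.645). Its paralogue Ctps2 on the X chromosome had 108, 120.4 and 118 CPM with desIgf1 against 95.5, 98.6 and 129 CPM in controls (log2 0.10, adjusted p = 0.8502). The ratio of Ctps to Ctps2 was 0.439, 0.283 and 0.494 with desIgf1 and 0.680, 0.677 and 0.384 in controls. It was thus lower with desIgf1 at numbers 1 and 2 and higher at number 3, and the groups overlapped. The value of Ctps was -0.20 without desIgf1 library 2 and -0.60 without desIgf1 library 3.

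Among the pyrimidine kinases, Cmpk1 had the opposite sign to the others. Cmpk1, the UMP and CMP kinase (chromosome 4, 114959336 to 114987241), had the largest positive log2 fold change of the list. It had 63.5, 63.9 and 48.5 CPM with desIgf1 against 42.3, 49.0 and 46.3 CPM in controls (log2 0.35 ± 0.14, adjusted p = 0.575). desIgf1 library 3 lay just under control library 2, and each desIgf1 library was above the control of its number. Uck2, the uridine and cytidine kinase, was at 104 ± 7.47 and 113 ± 20.3 CPM (log2 -0.12, adjusted p = 0.828). Nme1, a nucleoside diphosphate kinase, was at 50.5 ± 14.1 and 62.9 ± 7.57 CPM (log2 -0.32, adjusted p = 0.677).

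Nme2, the neighbouring kinase gene, was at only 0.687 ± 0.282 CPM with desIgf1 and 0.905 ± 0.311 CPM in controls. The annotated gene Gm20390 covers 48.9% of the exonic bases of Nme2 and 12.5% of those of Nme1, on the same strand, and had 0 counts in all 6 libraries. The counts of both kinase genes are therefore uncertain.

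The thymidylate group includes the enzymes that make dTMP and keep dUTP out of DNA. Tyms, which makes dTMP (chromosome 5, 30058202 to 30073617), had 50.9, 27.9 and 64.0 CPM with desIgf1 against 62.5, 83.0 and 55.7 CPM in controls. At number 2 the log2 difference was -1.57, next after Shmt1 (-1.93) among the members, and at number 3 desIgf1 was the higher one by 0.20. The groups overlapped. The fitted log2 fold change was -0.49 ± 0.29 (adjusted p = 0.659). It was -0.23 without desIgf1 library 2, -0.31 without control library 2 and -0.79 without desIgf1 library 3, and the blocked fit without number 2 gave -0.05.

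Dctd, which deaminates dCMP to supply Tyms, was the only member with all 3 desIgf1 libraries below all 3 controls, 1 of 35 (2.86%) against 6.18% of all genes. It had 6.06, 4.75 and 9.18 CPM with desIgf1 against 9.82, 9.80 and 10.7 CPM in controls (log2 -0.60 ± 0.26, adjusted p = 0.608). Without desIgf1 library 3 the value was -0.93. The gap at number 3 was the smallest of its 3, and Dctd was among the least abundant members per length. Dut, the dUTPase, was at 167 ± 24.8 and 212 ± 49.4 CPM (log2 -0.35, adjusted p = 0.640). Dtymk, the dTMP kinase, was at 72.0 ± 12.1 and 84.8 ± 14.6 CPM (log2 -0.24, adjusted p = 0.703).

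Salvage of deoxynucleosides goes through Tk1 in the cytosol, Tk2 in mitochondria and Dck. Tk1, the S phase thymidine kinase, had 91.8, 73.4 and 109 CPM with desIgf1 against 90.8, 118 and 94.8 CPM in controls (log2 -0.15 ± 0.17, adjusted p = 0.818). Tk2 had 57.2, 70.7 and 57.0 CPM with desIgf1 against 55.2, 48.9 and 56.2 CPM in controls (log2 0.21 ± 0.12, adjusted p = 0.661). The 3 desIgf1 libraries of Tk2 lay above the 3 controls, by less than 1 CPM at the closest, while those of Tk1 overlapped. Without desIgf1 library 2 the value of Tk2 was 0.09, and the blocked fit without number 2 gave 0.04. The value of Tk1 was -0.02 without desIgf1 library 2, -0.02 without control library 2 and -0.32 without desIgf1 library 3. The ratio of Tk1 to Tk2 was 1.61, 1.04 and 1.91 with desIgf1 and 1.65, 2.41 and 1.69 in controls. Dck, the deoxycytidine kinase, was at 115 ± 18.5 and 133 ± 20.5 CPM (log2 -0.21, adjusted p = 0.707) and was lower with desIgf1 at each number.

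Lower with desIgf1 at all 3 numbers were 3 members (Dctd, Dck and Nme2), where 17.2% of all genes were. Higher at all 3 were 5 members (Cmpk1, Tk2, Prps2, Impdh1 and Mthfd2), where 20.9% of all genes were. The members' shares of 8.57% and 14.3% were below those of all genes in both directions.

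PRPP is made by synthetases that Prps1 and Prps2 encode, both on the X chromosome. Prps2 had 101, 93.6 and 101 CPM with desIgf1 against 85.5, 91.2 and 86.8 CPM in controls, with no overlap between the groups (log2 0.16 ± 0.09, adjusted p = 0.644). Prps1 had 65.5, 59.6 and 57.8 CPM with desIgf1 against 71.4, 76.8 and 49.7 CPM in controls (log2 -0.11, adjusted p = 0.858). The ratio of Prps2 to Prps1 was 1.54, 1.57 and 1.74 with desIgf1 and 1.20, 1.19 and 1.75 in controls. It was higher with desIgf1 at numbers 1 and 2 and about equal at number 3.

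The 6 enzymes from PRPP to IMP had the same sign as each other at each number. All 6 were lower with desIgf1 at numbers 1 and 2 (medians -0.28 and -0.70) and all 6 were higher at number 3 (median 0.16). Their fitted log2 fold changes lay between -0.44 and -0.20, and 0 of 6 passed (adjusted p = 0.608 to 0.705). Gart, which carries out 3 of the steps (chromosome 16, 91621186 to 91646952), had 105, 78.3 and 124 CPM with desIgf1 against 146, 157 and 115 CPM in controls (log2 -0.44 ± 0.19, adjusted p = 0.608). The groups overlapped only through the number 3 libraries, and the value was -0.29 without desIgf1 library 2. Of the exonic bases of Gart, 19.7% are also covered by Gm15964 on the other strand.

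Ppat and Paics lie head to head on chromosome 5 and share 272 exonic bases on opposite strands. Ppat, the amidotransferase that commits PRPP to purines, had 57.3, 48.6 and 62.5 CPM with desIgf1 against 66.7, 73.7 and 53.5 CPM in controls (log2 -0.20 ± 0.15, adjusted p = 0.705). Paics, which acts later in the pathway, had 186, 167 and 201 CPM with desIgf1 against 219, 253 and 179 CPM in controls (log2 -0.23, adjusted p = 0.661). The ratio of Paics to Ppat hardly varied, at 3.24, 3.43 and 3.21 with desIgf1 and 3.29, 3.43 and 3.35 in controls. Of the ratios between members computed here, this one had the smallest spread relative to its size. The value of Ppat was -0.11 without desIgf1 library 2, -0.10 without control library 2, -0.31 without desIgf1 library 3 and -0.32 without control library 3.

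The other enzymes of IMP synthesis gave Pfas at 84.8 ± 12.4 and 110.0 ± 23.4 CPM (log2 -0.38, adjusted p = 0.626), Adsl at 76.1 ± 17.7 and 91.4 ± 5.51 CPM (log2 -0.26, adjusted p = 0.673) and Atic at 161 ± 26.3 and 189.9 ± 29.4 CPM (log2 -0.24, adjusted p = 0.685), with desIgf1 and in controls. Adsl also acts in the AMP branch, and Atic carries out the last 2 steps to IMP with a folate-bound carbon.

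Beyond IMP, 3 of 4 genes had a log2 fold change below 0 and 0 passed. IMP dehydrogenase, the first enzyme toward GMP, has 2 genes. Impdh2, the form tied to dividing lymphocytes, had 25.8, 21.8 and 26.6 CPM with desIgf1 against 33.5, 36.5 and 21.3 CPM in controls (log2 -0.30 ± 0.21, adjusted p = 0.696). Impdh1 had 113, 136 and 93.3 CPM with desIgf1 against 111, 120.4 and 87.3 CPM in controls (log2 0.10, adjusted p = 0.875). Per kilobase of annotated exon, Impdh1 had the higher value, at 34.7 RPKM with desIgf1 and 32.3 RPKM in controls, where Impdh2 was at 8.04 RPKM and 9.90 RPKM. Alignments marked not unique are not in these counts, and how many each gene lost is not known. The ratio of Impdh2 to Impdh1 was 0.227, 0.160 and 0.285 with desIgf1 and 0.302, 0.304 and 0.244 in controls, with number 3 again the reverse of the others. The value of Impdh2 was -0.15 without control library 2 and -0.50 without control library 3. Gmps, which makes GMP, was at 96.5 ± 6.73 and 98.9 ± 24.3 CPM (log2 -0.04, adjusted p = 0.965), and Adss, of the AMP branch, at 171 ± 8.42 and 186 ± 43.8 CPM (log2 -0.12, adjusted p = 0.852).

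Purine salvage was measured by Hprt and Aprt. Hprt, which recovers hypoxanthine and guanine and lies on the X chromosome, had the highest level of the list per length in desIgf1 cells, at 105 RPKM, and 87.2 RPKM in controls. Its CPM were 144, 137 and 127 with desIgf1 and 105, 153 and 79.7 in controls (log2 0.27 ± 0.22, adjusted p = 0.722). The desIgf1 libraries lay close together and the controls wide apart, with control library 2 above all others. The blocked log2 fold change was 0.25 without the number 1 libraries (adjusted p = 1), 0.56 ± 0.11 without number 2 (adjusted p = 0.00370) and 0.15 without number 3 (adjusted p = 0.602). The fit without the block gave 0.56 without control library 2 and 0.08 without control library 3. Aprt, which recovers adenine, was at 92.0 ± 17.1 and 108 ± 1.96 CPM (log2 -0.23, adjusted p = 0.661).

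In the folate group the fitted log2 fold change was below 0 for the cytosolic Shmt1 and Mthfd1 and for the mitochondrial Shmt2. It was above 0, by little, for the mitochondrial Mthfd2 and Mthfd1l. The numbers did not all show this split. At number 3 all 5 genes were higher with desIgf1, and at number 2 Mthfd1l was lower (log2 -0.10). Serine gives its carbon to folate through Shmt1 in the cytosol and Shmt2 in mitochondria. Shmt1 (chromosome 11, 60788104 to 60811718) had the largest negative log2 fold change and the smallest p of the list. It had 26.9, 16.4 and 33.8 CPM with desIgf1 against 49.4, 62.6 and 31.5 CPM in controls. desIgf1 libraries 1 and 2 lay below every control, and desIgf1 library 3 lay just above control library 3. The log2 fold change was -0.90 ± 0.32 without the block (edgeR adjusted p = 0.533) and did not pass with it (adjusted p = 0.351). In DESeq2 the adjusted p was 0.0461 with the block and 0.158 with group alone.

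Shmt2 had 116, 106 and 142 CPM with desIgf1 against 154, 177 and 115 CPM in controls (log2 -0.29 ± 0.18, adjusted p = 0.663). Its value was -0.45 without desIgf1 library 3, -0.15 without control library 2 and -0.45 without control library 3. Within each library, Shmt1 was lower relative to Shmt2 with desIgf1. The ratio of Shmt1 to Shmt2 was 0.231, 0.155 and 0.237 with desIgf1 and 0.321, 0.353 and 0.274 in controls, with no overlap between the groups. With 3 libraries against 3, an exact permutation test could not go below 0.1, and none was run on the ratios.

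Mthfd1 is the cytosolic enzyme with 3 folate activities, and Mthfd2 and Mthfd1l carry out its reactions in mitochondria. Mthfd1 had 80.2, 54.3 and 103 CPM with desIgf1 against 113, 128 and 91.0 CPM in controls (log2 -0.48 ± 0.23, adjusted p = 0.626). Mthfd2 had 99.0, 91.4 and 100.2 CPM with desIgf1 against 90.3, 88.7 and 85.1 CPM in controls, with no overlap (log2 0.14 ± 0.09, adjusted p = 0.678). Mthfd1l had 177, 217 and 179.6 CPM with desIgf1 against 159, 232 and 138 CPM in controls (log2 0.12 ± 0.20, adjusted p = 0.879). Without desIgf1 library 3 the value of Mthfd2 was 0.09. The value of Mthfd1l was 0.01 without desIgf1 library 2, 0.05 without control library 1, 0.37 without control library 2 and -0.03 without control library 3. The ratio of Mthfd2 to Mthfd1 was 1.24, 1.68 and 0.976 with desIgf1 and 0.801, 0.693 and 0.936 in controls, without overlap. That ratio was chosen after its genes' values were seen.

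**Figure D4:**
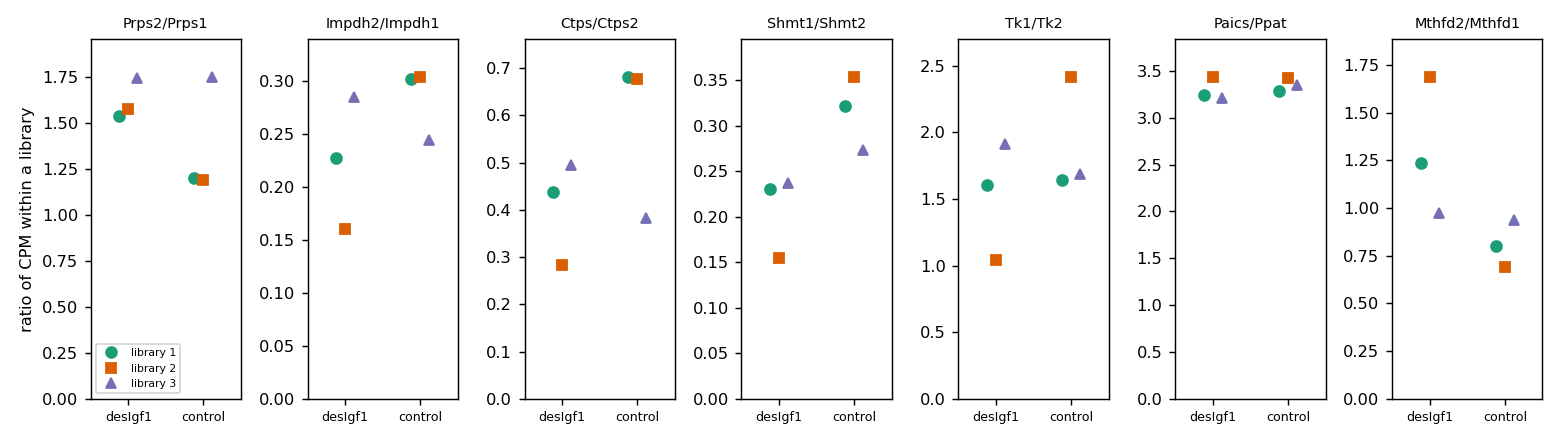
Ratio of CPM of 2 genes within a library (y axes from 0, 1 panel per gene pair), desIgf1 libraries on the left and control libraries on the right. Shmt1/Shmt2 is lower and Mthfd2/Mthfd1 higher in all 3 desIgf1 libraries than in any control, and Paics/Ppat stays between 3.21 and 3.43 in all 6. The ratio Mthfd1/Mthfd1l, in which the groups overlapped, is not shown.

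All 3 desIgf1 libraries lay above all 3 controls for 3 members (Tk2, Prps2 and Mthfd2), 8.57% against 7.31% of all genes. With Dctd, 4 members had no overlap in either direction. This count was 17 without desIgf1 library 3, 7 without control library 2 and 21 without control library 3. With a library fewer, any gene is less likely to overlap. The share over all genes was not computed for these 3 counts, so they are not read as a result about the members. Per length, the members spanned from 0.587 RPKM (Nme2 with desIgf1) to 105 RPKM (Hprt with desIgf1). Dut was at 69.4 RPKM with desIgf1 and 88.1 RPKM in controls, Paics at 58.8 and 69.1 RPKM, Aprt at 57.0 and 66.7 RPKM. At the low end were Dctd, at 1.95 and 2.97 RPKM, and Dhodh, at 2.51 and 2.73 RPKM.

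**Figure D5:**
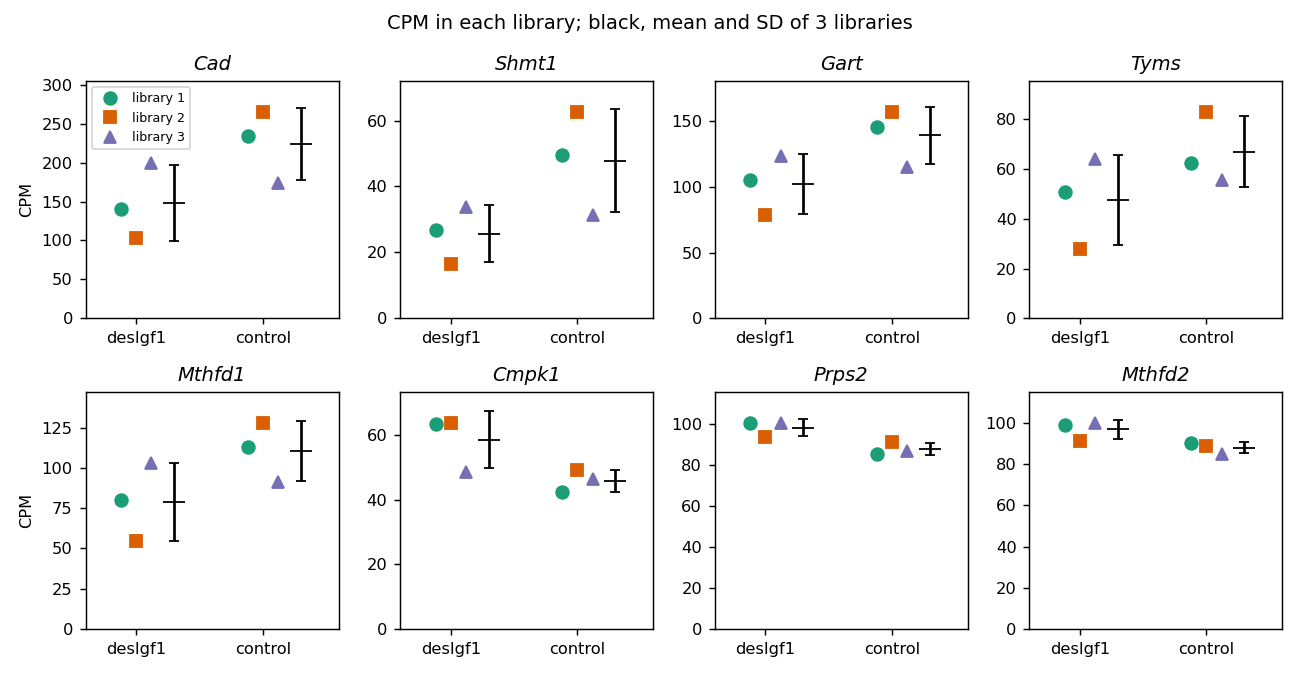
CPM (y axes from 0) of 8 members in each library, desIgf1 on the left and control on the right of each panel, with the mean and SD of 3 libraries in black. In Cad, Shmt1, Gart, Tyms and Mthfd1 the number 3 libraries lie in the reverse order of numbers 1 and 2, and in Prps2 and Mthfd2 the groups do not overlap.

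Other genes of these pathways gave no call in edgeR either, with or without the block. Of 4 genes of ribonucleotide reductase and dihydrofolate reductase, 0 passed. Rrm1, the large reductase subunit, had 319, 231 and 367 CPM with desIgf1 against 360.4, 503 and 311 CPM in controls (log2 -0.36, adjusted p = 0.668), lowest in desIgf1 library 2 and highest in control library 2. Rrm2b, the subunit used outside S phase, had the smallest p of these and the other sign (14.8 CPM with desIgf1 and 11.5 CPM in controls, log2 0.37 ± 0.20, adjusted p = 0.637). Of 6 tested genes of serine synthesis and glycine cleavage, 0 passed, and Gcsh, a glycine cleavage protein, had the smallest p (log2 -0.30, adjusted p = 0.661).

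Of 10 tested genes of folate transport and other folate enzymes, 0 passed in edgeR and 1 was called higher by DESeq2. That gene was Aldh1l1, which oxidises formyl-folate in the cytosol, at 10.3, 13.6 and 8.25 CPM with desIgf1 and 5.94, 5.98 and 5.67 CPM in controls. The groups did not overlap (log2 0.87 ± 0.22, edgeR adjusted p = 0.396, DESeq2 adjusted p = 0.0240). Of 7 tested methionine cycle genes 0 passed (smallest p Ahcy, log2 -0.39, adjusted p = 0.630), and of 15 other nucleoside and nucleotide kinases 0 passed (smallest p Ak1, under 1 CPM in every library).

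Of 20 tested genes of nucleotide breakdown and deamination 0 passed in edgeR. Upp1, the uridine phosphorylase, had 29.1, 49.4 and 31.3 CPM with desIgf1 against 19.9, 25.6 and 11.8 CPM in controls, without overlap (log2 0.94 ± 0.31, edgeR adjusted p = 0.526). Nt5e, the surface enzyme that turns AMP into adenosine, had 210.5, 192 and 378 CPM with desIgf1 against 384, 288 and 796 CPM in controls (log2 -0.91 ± 0.42, edgeR adjusted p = 0.625, and 0.0633 with the block). DESeq2 with the block called both, with adjusted p-values of 8.93e-05 for Upp1 and 6.24e-07 for Nt5e. Upp1 was higher and Nt5e lower with desIgf1 at each of the 3 numbers.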

How the data were processed

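The deposited files hold whole-number counts per Ensembl gene, 1 library each, not normalized by the authors. The submitters' processing notes name HTSeq 0.7.2, STAR 2.5.3, Trim Galore 0.4.5, R 3.4.3, DESeq2 1.18.1, SAMtools 0.1.18 and build GRCm38 (mm10), without roles. The sources used here do not give the strand setting or annotation release, so overlapping and antisense genes are uncertain. The 5 summary lines per file stayed out of library sizes. Reads that overlapped no gene were 13.5 to 15.7% and ambiguous reads 0.712 to 0.761% of uniquely placed ones. Alignments marked not unique were 46.4 to 48.7% of all entries.

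Symbols, coordinates and exon lengths came from GENCODE M21 (GRCm38). Genes were tested across the whole table with edgeR 4.0.16 in R 4.3.3 (TMM, group only, robust quasi-likelihood fit, filterByExpr at a count of 10), with Benjamini-Hochberg adjustment over all tested genes. DESeq2 1.42.0 was the other tool. Both tools were run on simulated data, which held no effect shared by library number. Criteria for recovery and false calls were applied to the edgeR fits alone. DESeq2 with the block was not among the fits simulated. CPM use TMM factors, RPKM divide CPM by the union of exons, and within-number differences use log2 CPM with a prior count of 2. The standard error is the log2 fold change divided by the square root of F. Over all tested genes, deviations from group means correlated at 0.59, 0.32 and 0.55 for numbers 1 to 3, which were therefore taken as pairs from the data. The members' summed levels did not share such deviations at numbers 2 and 3. Libraries of a group differed beyond sampling noise (chi-square per degree of freedom 40.2 to 129). Members and lists were chosen with earlier results of these data known. All members are reported. Values per library are given for 10 step-defining enzymes, for the 4 smallest p-values in each direction and for isoenzymes and neighbours. In each further list the gene with the smallest p is named, and Rrm1 and Nt5e were added after their values were seen.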

Additional observations from a re-analysis of the deposited data

How the results depend on the processing

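Alternatives were edgeR with DESeq2 size factors, no filter on low counts, DESeq2, the library number as a replicate block in either tool, and fits without libraries. Over all genes, edgeR called 16 without the filter and 44 with the block, and DESeq2 called 202 without the block and 606 with it. With all 6 libraries, members called were 0 except with the DESeq2 replicate block, which called 1. Without 1 library, members without overlap numbered 4 to 21, genes called 0 and members called 0, the members' median -0.33 to -0.13, and Mthfd1l -0.03 to 0.37, with a log2 fold change of -0.033 without control library 3. The count of 4 members without overlap became 17 without desIgf1 library 3, 7 without control library 2 and 21 without control library 3. Overlap is less likely for any gene with a library fewer, and no share over all genes was computed beside these counts. In the blocked fits without 1 number, 72 (number 1), 620 (number 2) and 1069 (number 3) genes and 0, 1 and 13 members were called. Without number 2, 8 members turned from below to above 0, so that 19 and not 27 were below 0; Ppat and Tk1 came to 0.00303 and 0.11, and the others were Uck2, Dtymk, Prps1, Atic, Adss and Gmps. The cause was not tested. Low counts limit the precision for Nme2, which stayed under 2 CPM in every library.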
